A study of Rattus norvegicus and Mus musculus with 61 samples.

Results

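Solute carriers are the membrane proteins of the SLC gene families, which move amino acids, neurotransmitters, sugars, ions, metals, nucleotides and vitamins across the plasma membrane and the membranes of organelles. Astrocytes and neurons use them to clear and refill glutamate and GABA, the blood-brain barrier to admit sugars, lactate and amino acids, and mitochondria to exchange metabolites with the cytosol. Chloride gradients, zinc in synaptic vesicles and iron in macrophages also depend on them. Their genes were followed here in injured mouse and rat cortex on microarrays. A gene was taken as a member where a probe set had 1 annotated symbol starting with Slc and a number. The glutamate transporter genes Slc1a2 and Slc1a3 and the glucose transporter genes Slc2a1 and Slc2a3 were left out, and each gene was read from its probe set with the highest mean. This gave 148 of 8251 genes on the mouse array and 116 of 4736 genes on the rat array, which are 193 distinct symbols, 71 of them on both arrays. The symbols Slc4a1ap, Slc9a3r1 and Slc9a3r2 match the rule but name an adaptor and scaffold proteins rather than carriers.

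The mouse samples were male C57BL/6 mice under isoflurane and oxygen. Injury was a moderate controlled cortical impact at 6 m/s with 1.5 mm deformation, and a 4 mm disk of parieto-occipital cortex that held the contusion was taken 4, 8, 24 or 72 h later (3 arrays a time). Sham surgery had 2 arrays at each of those times and naive mice had 2 arrays, and every mouse array was hybridised with RNA pooled from 3 animals. The rat samples were male Sprague-Dawley rats under sodium pentobarbital, with fluid percussion by a pressure pulse of 2.5 atm and a 7 mm disk from 1 animal an array. Injured rats were taken at 30 min (5 arrays) and at 4, 8, 24 and 72 h and 21 d (3 arrays each), sham rats at 30 min and 4 h (4 arrays each) and at the other times (2 arrays each), and 3 rats were naive. In all, 61 arrays fall into 22 groups. Both sham arrays of a mouse time carry the number 1 and differ by a letter in their titles, so they may hold 1 RNA pool measured again, and p-values then measure a spread that may be technical.

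Values are array signals whose trimmed mean was about 800.3 to 801.2 on every array. Differences are log2 differences of injury minus time-matched sham ± the standard error from limma. A gene is called, and is said to have risen or fallen, where limma's p adjusted over all genes tested is below 0.05. Of the members, 110 mouse and 102 rat genes passed the filter on dim probe sets (signal above the 40th percentile on at least 3 arrays). The other 38 mouse and 14 rat members were too dim to test, among them the cystine transporter gene Slc7a11 in mouse and the vesicular glutamate transporter gene Slc17a7 in rat, which is a defining gene of excitatory cortical neurons and was at the floor on 28 of 39 arrays. Neuron markers summed to 6506 to 30342 over 6 genes on the rat arrays and to 26783 to 49660 over 7 genes on the mouse arrays. The number of arrays limits the precision of every value. Each call of a member was repeated under alternatives. These left out single arrays or changed the control arrays, floor, filter, normalization, choice of probe set or groups fitted. A call held where the adjusted p stayed below 0.05.

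Some arrays stand apart in ways the groups do not give. On the rat side, sham 4 h replicates 4 and 3, injury 30 min replicate 5 and sham 30 min replicate 3 had median correlations with the other arrays of 0.608, 0.731, 0.798 and 0.829, against 0.864 or more for every other rat array. All rat arrays of 24 h, injury and sham, had correlations of only 0.864 to 0.876. Their median signals were 398 to 409, against 277 to 298 in naive rats. Comparing the 24 h arrays with arrays of other times therefore also compares these sets. On the mouse side, both sham 4 h arrays carried signal of pituitary hormone genes, with sums of 18660.1 to 20952 against at most 2698 elsewhere, so the 4 h comparison rests on controls that differ from the other sham arrays. Choroid plexus markers, of an epithelium rich in solute carriers, differed between sham groups too: 4 of them summed to 7889 to 8814 at 4 h, 922 to 1243 at 8 h, 5369.6 to 6884 at 24 h and 1791 to 1973 at 72 h in mouse. Over all rat arrays that sum ran from 798 to 35273, and the part of choroid plexus in the results was not tested. In whole tissue, fewer cells of a type and less RNA per cell cannot be told apart.

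In the injured mouse cortex, 27 of the 110 tested members passed the test at one or more times, 15 rising and 12 falling. The share of all genes called at one or more times was not taken, so this count has no background. No member was called at 4 h, when 0.865% of all genes tested were. At that time 10 members, or 9.09%, had an unadjusted p below 0.05, beside 9.06% of all genes. At 8 h 9 members were called (6 rose and 3 fell), which is 8.18% of them beside 8.18% of all genes (4.91% rising and 3.27% falling). At 24 h 11 were called (2 rose and 9 fell), 10% beside 10.7%. At 72 h 16 were called (11 rose and 5 fell), 14.5% beside 15.5% of all genes (9.85% rising and 5.68% falling). Averaged over the 4 times, 28 were called (17 rose and 11 fell), 25.5% beside 23.2% of all genes (13% rising and 10.3% falling). These shares lie near the background. At 24 h the split leaned downward, with 1.82% of members rising against 6.2% of all genes and 8.18% falling against 4.5%; this difference was not tested. The members' median difference at 24 h was -0.07 beside -0.04 over all genes. Single arrays moved these counts. At 8 h the count was 3 without sham replicate 1b, when 3.11% of all genes were called. At 24 h it was 5 without injury replicate 1, 4 without injury replicate 3, 3 without sham replicate 1c and 2 without sham replicate 1d. The shares of all genes were then 7.57%, 7.87%, 5.97% and 3.88%. At 72 h it was 8 without injury replicate 1, 5 without injury replicate 3 and 4 without sham replicate 1d, beside 10.3%, 9.5% and 7.74% of all genes. With both sham arrays of a time averaged into 1, 2 members were called at 8 h, 2 at 24 h, 4 at 72 h and 12 over all times. The shares of all genes were then 3.01%, 4.01%, 7.38% and 13.6%. With only the compared groups fitted 4, 1 and 3 were called at 8, 24 and 72 h, beside 4.86%, 4.66% and 7.47% of all genes. Of the 28 members called over all times, 18 had the same sign at all 4 times. Of all 110 members, these included, 34 had. The average is taken over the same times and favours members of 1 sign, so this count is no support for the calls.

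**Figure D1:**
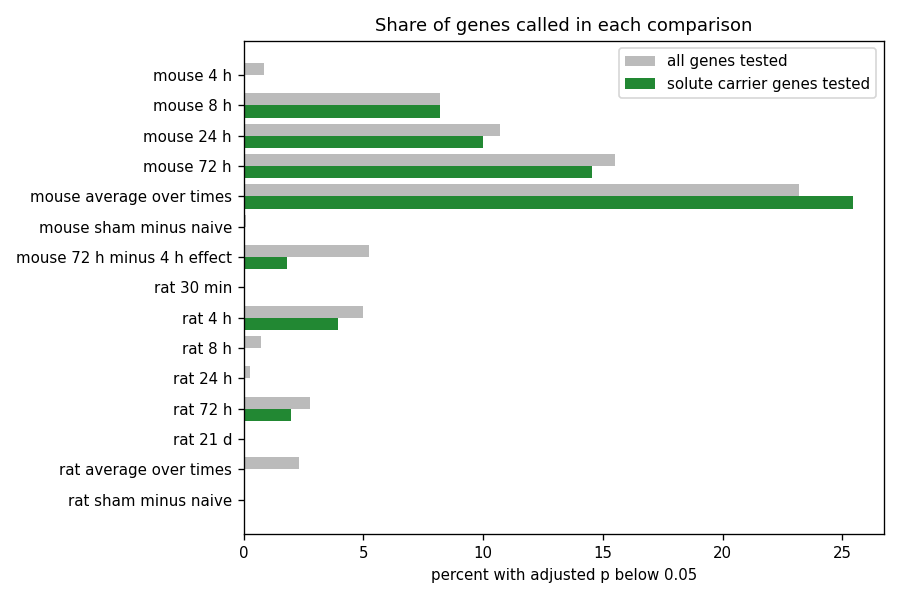
Percent of genes with an adjusted p below 0.05 (x axis) in each comparison (y axis), for all genes tested (grey bars) and for the solute carrier genes tested (green bars). The green and grey bars are of similar length in mouse at 8, 24 and 72 h, and the rat bars are short throughout, with none of the members called in the rat average over times.

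Amino acid transporters of the cell surface gave some of the steadiest rises. Of 15 tested mouse members of these families, 4 rose and 2 fell over all times. In that average 13% of all genes rose and 10.3% fell, the background for this and the later class counts. The 4 rises include Slc7a7, which passed the filter through injury arrays alone. Classes follow family numbers, so Slc6a15, an amino acid carrier gene that fell, is counted with the SLC6 family below. Slc3a2 and Slc7a5 encode the heavy chain 4F2hc and the light chain LAT1 of one exchanger of large neutral amino acids, which supplies leucine and other essential amino acids to activated cells and across the blood-brain barrier. The bases before the transcription start of both genes are shown first, since both rose in mouse at 8 h and they encode the 2 chains of 1 protein. No mouse promoter was used here, so they are the rat sequences of RefSeq on the build GRCr8, at chr1:215048065-215048314 on the minus strand for the first of 2 listed starts of Slc3a2 and at chr19:66872413-66872662 on the minus strand for Slc7a5. Each is printed 5′ to 3′ for the 250 bases before the start, and capitals mark GGGCGG or CCGCCC (a GC box on either strand), TGACG or CGTCA (the core of a cAMP response element) and GAGGAA or TTCCTC (the core bound by PU.1).
Slc3a2: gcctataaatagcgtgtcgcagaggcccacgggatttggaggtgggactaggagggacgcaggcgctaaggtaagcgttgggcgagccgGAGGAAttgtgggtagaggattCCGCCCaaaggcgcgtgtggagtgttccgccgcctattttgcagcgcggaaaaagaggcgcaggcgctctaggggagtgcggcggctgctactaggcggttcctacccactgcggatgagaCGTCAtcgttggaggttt
Slc7a5: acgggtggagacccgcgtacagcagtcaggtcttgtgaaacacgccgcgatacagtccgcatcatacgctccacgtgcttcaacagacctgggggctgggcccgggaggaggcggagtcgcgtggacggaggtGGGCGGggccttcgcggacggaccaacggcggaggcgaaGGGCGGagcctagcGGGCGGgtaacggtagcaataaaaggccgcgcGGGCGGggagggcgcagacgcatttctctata
The Slc3a2 window held 1 of each motif and the Slc7a5 window held 4 GC boxes and neither of the others. Over the 33469 promoter windows of 250 bases in the same table, 30.5% held a GC box, 18.2% the cAMP core and 23.3% the PU.1 core. Of 116 rat members, 98 had a window there, and 49% of those held a GC box, 19.4% the cAMP core and 23.5% the PU.1 core. A match is a description of the letters and not a bound site.

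Slc3a2 (probe set 99133_at) measured 7452, 6851 and 5549 on the injury arrays at 8 h against 3459 and 4237 in sham and 4595 and 4503 in naive mice. All injury arrays lay above both controls, and the sham arrays of this time were the lowest of the series. The gene rose by 0.78 ± 0.14 on the log2 scale at 8 h (adjusted p = 0.00144) and over all times by 0.32 ± 0.07 (adjusted p = 0.00266), while at 4, 24 and 72 h the differences were 0.18, 0.22 and 0.09 and did not pass. Slc3a2 at 8 h held under 13 of 14 alternatives and was lost without sham replicate 1b (adjusted p = 0.0573). Its partner Slc7a5 (probe set 104221_at) was the only member called at 3 single times. At 8 h it measured 2773, 2897 and 2496 against 1904 and 1935 in sham. At 24 h the values were 2327, 2965 and 2883 against 2025 and 1942. At 72 h they were 2653, 2646 and 2881 against 2037 and 2015, and at none of these times did the groups overlap. Naive mice stood with the sham arrays at 2196 and 2049. The differences were 0.50 ± 0.12 (adjusted p = 0.0126) at 8 h, 0.45 ± 0.12 (adjusted p = 0.0201) at 24 h and 0.43 ± 0.12 (adjusted p = 0.0211) at 72 h, and 0.39 ± 0.06 (adjusted p = 7e-05) over all times. Slc7a5 at 8 h was called under 9 of 14 alternatives but not with averaged sham arrays, with only the compared groups fitted or without injury replicate 2 or sham replicate 1b or 1c (adjusted p = 0.0538 to 0.134). Slc7a5 at 24 h kept its call under 8 of 14 alternatives and lost it with averaged sham arrays, with only the compared groups fitted or without injury replicate 2 or 3 or sham replicate 1c or 1d (adjusted p = 0.0526 to 0.203). Slc7a5 at 72 h held under 10 of 14 alternatives and was lost with averaged sham arrays, with only the compared groups fitted or without injury replicate 3 or sham replicate 1d (adjusted p = 0.0793 to 0.149). Over all times, the calls of Slc3a2 and Slc7a5 held under all 27 alternatives that were run.

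Slc7a7 (probe set 103818_at) encodes y+LAT1, another light chain that pairs with 4F2hc and exports cationic amino acids from macrophages and epithelia. It was near the lowest signals of the array in naive mice (41.8 and 30.6) and in the 72 h sham arrays (43.9 and 35.1). Injury arrays measured 135, 91.5 and 44 at 24 h and 249.8, 242 and 360.1 at 72 h. The gene passed the filter through the 3 injury arrays of 72 h alone, so it had to differ there to be tested, and leaving out any of the 3 took it out of the test. Its difference of 2.83 at 72 h, counted among the calls of that time, is therefore given as a description, since the sham arrays lay near the floor of 24.1 and far below the filter level of 193. The summed signal of 11 microglia and macrophage markers was 39113 to 51092 on the injury arrays of 72 h against 9855 to 10408 in sham, and its part in these values was not tested. Slc38a10, of the sodium-coupled neutral amino acid family, measured 1645, 1351 and 1801 at 72 h against 1049 and 918 in sham, and the groups did not overlap. It rose by 0.69 ± 0.16 (adjusted p = 0.00646) at 72 h and by 0.42 ± 0.08 (adjusted p = 0.000803) over all times. Slc38a10 at 72 h was called under 12 of 14 alternatives but not with only the compared groups fitted or without sham replicate 1d (adjusted p = 0.0738 to 0.0868).

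Both glutamate carriers among the tested members of this class fell. Slc1a6 (probe set 99845_at) encodes the neuronal glutamate transporter EAAT4. At 24 h it measured 110.4, 304 and 77.9 on the injury arrays against 559 and 431 in sham and 512 and 372 in naive mice; one injury array lay much nearer to sham than the others. The fall was -1.83 ± 0.40 (adjusted p = 0.00479) at 24 h and -0.89 ± 0.20 (adjusted p = 0.00279) over all times, the largest fall among the members called over all times. Slc1a6 at 24 h kept its call under 11 of 14 alternatives and lost it with averaged sham arrays, with only the compared groups fitted or without sham replicate 1c (adjusted p = 0.0684 to 0.0947). Slc1a1, the neuronal glutamate and cysteine transporter EAAC1, fell by 0.31 ± 0.11 on the log2 scale over all times (adjusted p = 0.0381), with 607, 677 and 558 against 757 and 791 at 72 h and no call at any single time. Slc1a1 over all times held under 17 of 27 alternatives and was lost with averaged sham arrays or without injury 4 h replicate 3, injury 8 h replicate 3, injury 24 h replicate 1, injury 72 h replicate 1 or 3, sham 4 h replicate 1c, sham 8 h replicate 1c, sham 24 h replicate 1d or sham 72 h replicate 1d (adjusted p = 0.0549 to 0.147).

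**Figure D2:**
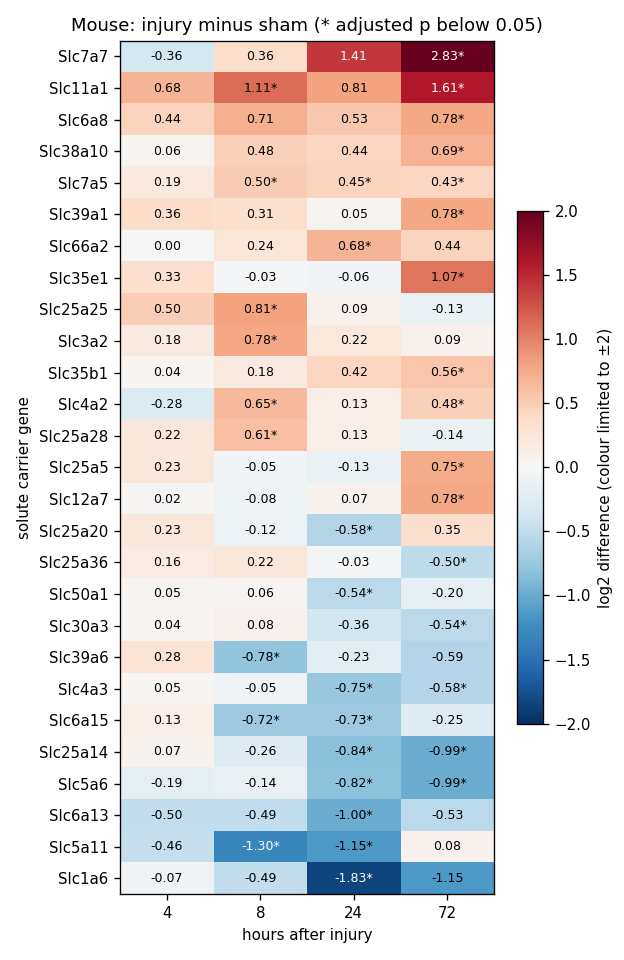
Log2 difference of injury minus sham in mouse (colour and printed value) for the 27 solute carrier genes called at one or more times (y axis, sorted by their average over times) at 4, 8, 24 and 72 h (x axis); an asterisk marks an adjusted p below 0.05. None is marked at 4 h, and Slc7a5 is marked at 8, 24 and 72 h.

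Transporters of the SLC6 family, which take up neurotransmitters, creatine and some amino acids with sodium and chloride, moved in both directions. Together with the vesicular families SLC17, SLC18 and SLC32 they had 10 tested mouse members, of which 1 rose and 2 fell over all times. Slc6a13 (probe set 103934_at) encodes the GABA and taurine transporter GAT2, known from the leptomeninges, liver and kidney. It measured 541, 666 and 634 at 24 h against 1390.2 and 1069 in sham and 1063 and 1031 in naive mice. At 4, 8 and 72 h the injury arrays measured 574, 722 and 876, 693, 605 and 627 and 729, 899 and 811, and each lay below every sham array of its own time. The difference was -0.996 ± 0.19 (adjusted p = 0.00144) at 24 h and -0.63 ± 0.09 (adjusted p = 4.21e-05) over all times, the smallest adjusted p of any member. It was one of only 2 single-time calls, beside Slc11a1 at 72 h, that held under all 14 alternatives run for them. The sum of 6 markers of meninges and fibroblasts was 14017 to 18399 at 24 h after injury and 17379.7 to 19766 in sham, and these ranges overlap. They also overlapped at 4 h (11860 to 15577 against 15332 to 16564). At 8 h (13088 to 16553 against 18156 to 21237) and 72 h (13260.2 to 14701 against 18700.0 to 22594) they did not. The part of this signal in the fall was not tested.

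Slc6a15 (probe set 161036_at) encodes B0AT2, a neuronal transporter of branched-chain amino acids and proline. It measured 1125, 1267 and 1279 at 8 h after injury against 2148 and 1894 in sham, and 1252, 1048 and 1256 against 1818 and 2109 at 24 h. Naive mice measured 1312 and 1423, so at these times it was the sham arrays that lay above naive, and the injury arrays lay at or below it. The falls were -0.72 ± 0.14 (adjusted p = 0.00207) at 8 h, -0.73 ± 0.14 (adjusted p = 0.00161) at 24 h and -0.39 ± 0.07 (adjusted p = 0.000268) over all times. Slc6a15 at 8 h was called under 13 of 14 alternatives but not without sham replicate 1b (adjusted p = 0.0571). Slc6a15 at 24 h kept its call under 12 of 14 alternatives and lost it with only the compared groups fitted or without sham replicate 1d (adjusted p = 0.0529 to 0.0558). The creatine transporter gene Slc6a8 went the other way. At 72 h it measured 2189.8, 1901 and 2743 against 1145 and 1499.8 in sham, with 1127 and 1827 in naive mice, and at 8 h 2130.1, 1990.3 and 2394 against 1235 and 1410.3. Its rise was 0.78 ± 0.23 (adjusted p = 0.029) at 72 h and 0.62 ± 0.12 (adjusted p = 0.0006) over all times. At 8 h the difference did not pass. Slc6a8 at 72 h held under 9 of 14 alternatives and was lost with averaged sham arrays, with only the compared groups fitted or without injury replicate 1 or 3 or sham replicate 1c (adjusted p = 0.0615 to 0.172). Slc32a1, the vesicular GABA transporter of inhibitory neurons, measured 8411, 8925 and 6019 against 4876 and 5085 at 8 h; the groups did not overlap, but the difference of 0.62 ± 0.25 (adjusted p = 0.14) did not pass.

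**Figure D3:**
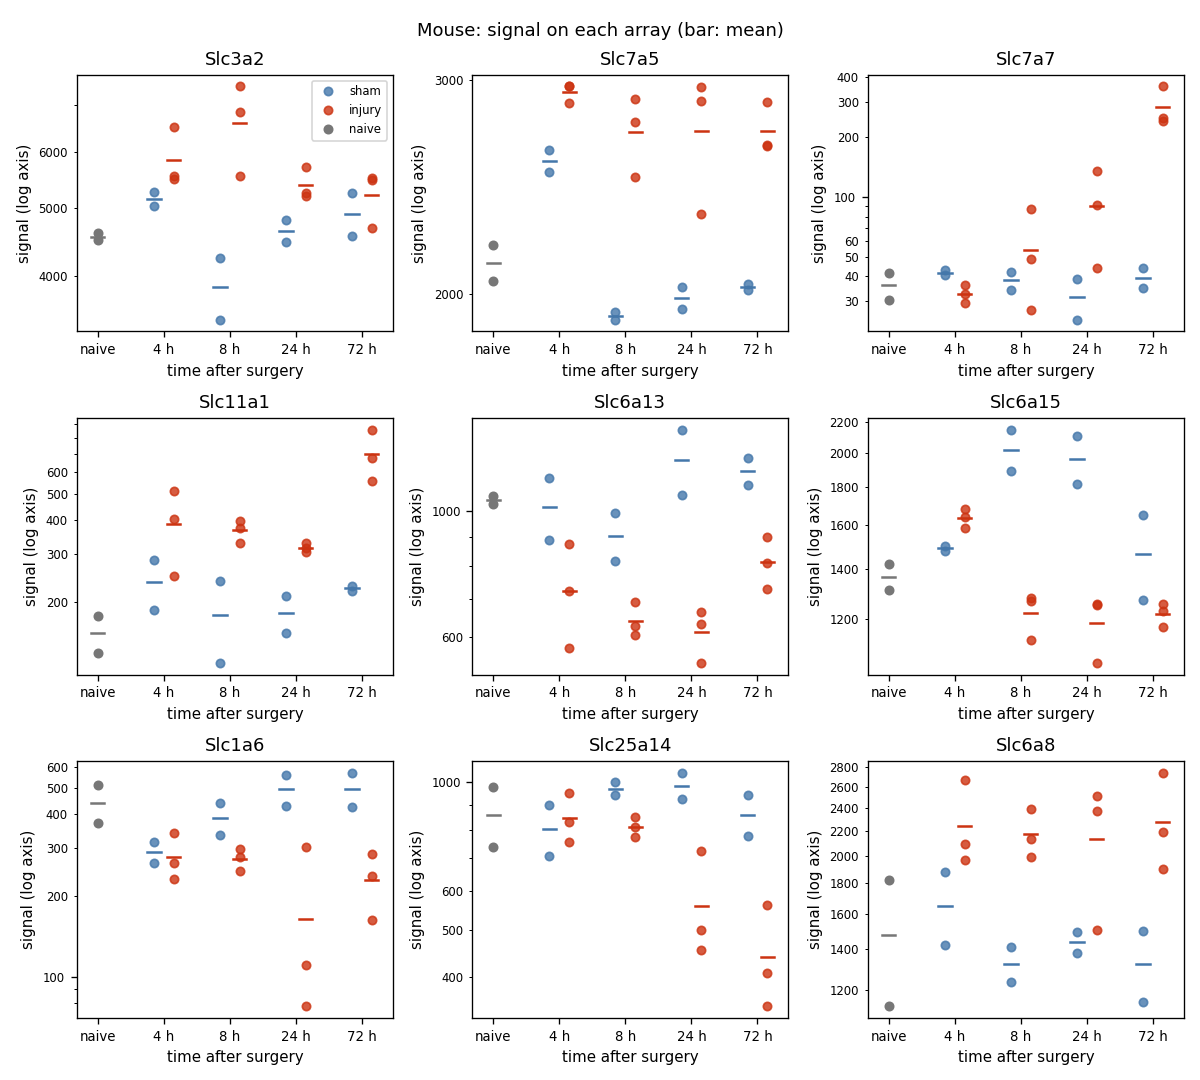
Signal on each mouse array (y axes, logarithmic) for 9 solute carrier genes, by time after surgery (x axis; naive arrays first), with injury in red, sham in blue, naive in grey and bars at the group means. The injury arrays of Slc7a5 lie above the sham arrays at every time, those of Slc6a13 lie below them at every time, and Slc7a7 stands at 249.8, 242 and 360.1 at 72 h after injury.

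Metal transporters had 14 tested mouse members, of which 4 rose and 1 fell over all times. Slc11a1 (probe set 96562_at) encodes NRAMP1, which moves iron and manganese out of the phagosomes of macrophages. It measured 673, 557 and 857 at 72 h after injury against 219 and 230.0 in sham, and both naive arrays lay below these, at no more than 178. At 8 h the values were 375, 395 and 329 against 119.6 and 239, and at 24 h 330.3, 315 and 304 against 211 and 154. The injury arrays lay above the sham arrays at 8, 24 and 72 h, and overlapped them at 4 h. The differences at 4 and 24 h did not pass. The rise was 1.11 ± 0.32 (adjusted p = 0.0361) at 8 h, 1.61 ± 0.32 (adjusted p = 0.0017) at 72 h and 1.05 ± 0.16 (adjusted p = 6.14e-05) over all times. Slc11a1 at 8 h was called under 7 of 14 alternatives but not with averaged sham arrays, with only the compared groups fitted, without the filter or without injury replicate 1, 2 or 3 or sham replicate 1b (adjusted p = 0.0523 to 0.519). The microglia and macrophage marker sum given for Slc7a7 was also higher, at 17211 to 18724 at 8 h and 20238 to 21958 at 24 h after injury, against 9813 to 9869 and 9387 to 9731 in sham. Its part in the Slc11a1 rise was not tested.

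Slc39a1, which encodes the plasma membrane zinc importer ZIP1, measured 2232, 1421 and 1948 at 72 h against 1176 and 970.3 and rose by 0.78 ± 0.22 (adjusted p = 0.0228). Slc39a1 at 72 h kept its call under 9 of 14 alternatives and lost it with averaged sham arrays, with only the compared groups fitted or without injury replicate 1 or 3 or sham replicate 1d (adjusted p = 0.073 to 0.205). Slc39a6, the zinc importer ZIP6, measured 579, 685 and 635 at 8 h against 1287 and 919 and fell by 0.78 ± 0.22 on the log2 scale (adjusted p = 0.028). Naive mice measured 671 and 655, which is at the level of the injury arrays, so the 8 h sham arrays were the high ones. Slc39a6 at 8 h held under 8 of 14 alternatives and was lost with averaged sham arrays, with only the compared groups fitted, against all uninjured arrays or without injury replicate 1 or 3 or sham replicate 1b (adjusted p = 0.0584 to 0.382). Slc30a3, the zinc transporter ZnT3 that fills the synaptic vesicles of glutamatergic neurons, measured 4733, 6153 and 4583 at 72 h against 7543 and 7298 in sham and 7409 and 6911 in naive mice. The groups did not overlap, and the fall was -0.54 ± 0.15 (adjusted p = 0.0178). Slc30a3 at 72 h was called under 8 of 14 alternatives but not with averaged sham arrays, with only the compared groups fitted or without injury replicate 1 or 3 or sham replicate 1c or 1d (adjusted p = 0.0573 to 0.124). Slc39a7, a zinc exporter of the endoplasmic reticulum, rose over all times by 0.32 ± 0.09 (adjusted p = 0.0164), with no call at a single time. Slc39a7 over all times kept its call under 26 of 27 alternatives and lost it with averaged sham arrays (adjusted p = 0.0876).

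Slc11a2 (probe set 104451_at) encodes DMT1, which imports ferrous iron. At 4 h it measured 1423, 1506 and 1623 after injury against 1112 and 940.0 in sham. At 72 h it measured 989, 1008 and 1105 against 1198 and 1511, so every injury array was above sham at 4 h and below it at 72 h. Over all times it rose by 0.26 ± 0.08 (adjusted p = 0.0205). Slc11a2 over all times held under 22 of 27 alternatives and was lost with averaged sham arrays, with the mean of its probe sets or without sham 4 h replicate 1c, sham 8 h replicate 1c or sham 72 h replicate 1c (adjusted p = 0.051 to 0.098). Neither time passed by itself (0.57 ± 0.15, adjusted p = 0.12 at 4 h, and -0.38 ± 0.15, adjusted p = 0.11 at 72 h), but the difference between the 72 h and 4 h effects did, at -0.95 ± 0.22 (adjusted p = 0.013). It was 1 of 2 members called in that comparison, both of them lower, 1.82% of the members beside 5.22% of all genes (3.6% higher and 1.62% lower). That count was 0 without sham 4 h replicate 1c or sham 72 h replicate 1d, beside 2.79% and 3.26% of all genes. It was 1 without sham 4 h replicate 1b, injury 4 h replicate 1 or 2 or injury 72 h replicate 1 or 3 (3.26% to 4.49%). It was 11 without sham 72 h replicate 1c, when 12.2% of all genes were called. Slc11a2 in that comparison was called under 13 of 17 alternatives but not with averaged sham arrays, with the mean of its probe sets or without sham 4 h replicate 1c or sham 72 h replicate 1d (adjusted p = 0.0872 to 0.462). In a fit over all probe sets its other probe set gave a difference of 0.36 ± 0.23 with the opposite sign, which did not pass (adjusted p = 0.428), so that call belongs to 1 probe set of the gene. The 4 h sham arrays with the pituitary signal enter it, and the part of that signal was not tested.

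Mitochondrial carriers of the SLC25 family were the largest class, with 19 tested mouse members. Over all times 3 rose and 2 fell. Slc25a14 (probe set 98470_at) encodes the brain mitochondrial carrier BMCP1, also called UCP5, and was the other member whose effect differed between 72 h and 4 h. At 4 h it measured 757, 829.1 and 949 after injury and 709 and 900.2 in sham, and the groups overlapped. At 24 h it measured 456, 726 and 501 against 1046 and 925, and at 72 h 409, 562 and 349 against 777 and 942, with no overlap at either time. The falls were -0.84 ± 0.22 (adjusted p = 0.0163) at 24 h, -0.99 ± 0.22 (adjusted p = 0.00376) at 72 h and -0.50 ± 0.11 (adjusted p = 0.00187) over all times, and the 72 h effect minus the 4 h effect was -1.06 ± 0.31 (adjusted p = 0.0485). Slc25a14 at 72 h kept its call under 12 of 14 alternatives and lost it with only the compared groups fitted or without sham replicate 1d (adjusted p = 0.0576 to 0.0652). Slc25a14 at 24 h held under 8 of 14 alternatives and was lost with averaged sham arrays, with only the compared groups fitted or without injury replicate 1 or 3 or sham replicate 1c or 1d (adjusted p = 0.0533 to 0.136). Its 72 h minus 4 h difference was called under 5 of 17 alternatives but not with averaged sham arrays, without the filter, after quantile normalization, with the title letter as a block or without injury 4 h replicate 1, 2 or 3, injury 72 h replicate 1 or 3, sham 4 h replicate 1b or 1c or sham 72 h replicate 1d (adjusted p = 0.0516 to 0.263).

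At 8 h the calcium-regulated ATP-magnesium and phosphate carrier gene Slc25a25 and the iron importer gene Slc25a28 (mitoferrin 2) rose. Slc25a25 measured 3594, 2866 and 3527 against 2040.0 and 1746 in sham, and Slc25a28 measured 1629.5, 1394 and 1550.4 against 894 and 1116. Neither pair of groups overlapped. The rises were 0.81 ± 0.18 (adjusted p = 0.00603) for Slc25a25 and 0.61 ± 0.16 (adjusted p = 0.0235) for Slc25a28. At 24 h the differences were 0.09 and 0.13, and at 72 h -0.13 and -0.14, none of which passed; a change between times was not tested for them beyond 72 h against 4 h, where neither was called. Slc25a25 at 8 h kept its call under 12 of 14 alternatives and lost it with averaged sham arrays or without sham replicate 1c (adjusted p = 0.076 to 0.0801). Slc25a28 at 8 h held under 7 of 14 alternatives and was lost with averaged sham arrays, with only the compared groups fitted, against all uninjured arrays, against the sham arrays of 8, 24 and 72 h pooled or without injury replicate 1 or 3 or sham replicate 1b (adjusted p = 0.0566 to 0.316). The pyrimidine nucleotide carrier gene Slc25a36 measured 1651, 1662 and 1167 at 72 h against 1890.5 and 2304 and fell by 0.50 ± 0.16 on the log2 scale (adjusted p = 0.0434). Slc25a36 at 72 h was called under 10 of 14 alternatives but not with averaged sham arrays, with only the compared groups fitted or without injury replicate 3 or sham replicate 1d (adjusted p = 0.177 to 0.338).

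Ion exchangers and cotransporters had 15 tested mouse members, of which 3 rose and 1 fell over all times. The chloride and bicarbonate exchangers Slc4a2 (AE2, found in many cell types) and Slc4a3 (AE3, a neuronal and cardiac form) went in opposite directions. Slc4a2 measured 941, 964 and 1058 at 8 h against 673 and 586 in sham and rose by 0.65 ± 0.16 (adjusted p = 0.0151); at 72 h it measured 979, 1193 and 1033 against 812 and 716 (0.48 ± 0.16, adjusted p = 0.0483). Slc4a3 measured 1895, 3265 and 2251 at 24 h against 4075 and 4026 and fell by 0.75 ± 0.20 on the log2 scale (adjusted p = 0.0171); at 72 h it measured 2952, 3736 and 3211 against 4160.3 and 5824 (-0.58 ± 0.20, adjusted p = 0.0492). All 4 comparisons were without overlap, but the calls depended on single arrays. Slc4a2 at 8 h kept its call under 8 of 14 alternatives and lost it with averaged sham arrays, with only the compared groups fitted, against all uninjured arrays, against the sham arrays of 8, 24 and 72 h pooled or without sham replicate 1b or 1c (adjusted p = 0.053 to 0.258). Slc4a2 at 72 h held under 4 of 14 alternatives and was lost with averaged sham arrays, with only the compared groups fitted, against all uninjured arrays, after quantile normalization, with the title letter as a block or without injury replicate 1, 2 or 3 or sham replicate 1c or 1d (adjusted p = 0.05 to 0.29). Slc4a3 at 24 h was called under 8 of 14 alternatives but not with averaged sham arrays, with only the compared groups fitted or without injury replicate 1 or 3 or sham replicate 1c or 1d (adjusted p = 0.0545 to 0.117). Slc4a3 at 72 h kept its call under 3 of 14 alternatives and lost it with averaged sham arrays, with only the compared groups fitted, against all uninjured arrays, with the mean of its probe sets, without the filter, after quantile normalization, against the sham arrays of 8, 24 and 72 h pooled, with the title letter as a block or without injury replicate 1 or 3 or sham replicate 1d (adjusted p = 0.0508 to 0.456).

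Slc41a1, a magnesium transporter gene, was called only over all times, by 0.54 ± 0.12 (adjusted p = 0.00299), and held under all 27 alternatives. Its injury arrays measured 859, 1879 and 1352 at 8 h and 1168, 1347 and 1013 at 24 h against 738 and 756 and 771 and 856 in sham, so each lay above its controls, with the widest spread at 8 h. The potassium-chloride cotransporter gene Slc12a7 (KCC4) measured 435, 324 and 456 at 72 h against 227 and 240.1 and rose by 0.78 ± 0.23 (adjusted p = 0.0266). Slc12a7 at 72 h held under 8 of 14 alternatives and was lost with averaged sham arrays, with only the compared groups fitted or without injury replicate 1 or 3 or sham replicate 1c or 1d (adjusted p = 0.0828 to 0.162). The cotransporters that set neuronal chloride did not pass in mouse at any time. Slc12a5 (KCC2) measured 239, 319 and 250.2 against 524 and 245 at 72 h with a difference of -0.42 ± 0.33 (adjusted p = 0.466), and Slc12a2 (NKCC1) measured 2845, 2987 and 2696 against 2916 and 2972 with -0.05 ± 0.18 (adjusted p = 0.898). Slc8a1, the sodium and calcium exchanger NCX1, had differences between -0.12 at 8 h and 0.34 at 72 h, none of which passed.

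Carriers of sugars, monocarboxylates and other fuels, grouped by family number, had 8 tested mouse members. Over all times none rose and 2 fell, when 13% of all genes rose and 10.3% fell. These 2 are Slc5a6 and Slc5a11, which carry vitamins and inositol, and no carrier of sugars or monocarboxylates was called in the average. At 24 h 3 of the 8 fell, when 4.5% of all genes did. They were these 2 and the sugar transporter gene Slc50a1 (-0.54, adjusted p = 0.0218). Slc50a1 at 24 h held under 8 of 14 alternatives and was lost under the others (adjusted p = 0.0691 to 0.184). Slc5a6 encodes the sodium-coupled multivitamin transporter of biotin and pantothenate. It measured 324, 463 and 337 at 72 h against 774 and 698 in sham, and 527, 579 and 336 against 847 and 803 at 24 h; naive mice at 592 and 402 lay below these sham arrays. The falls were -0.99 ± 0.25 (adjusted p = 0.00984) at 72 h, -0.82 ± 0.25 (adjusted p = 0.0392) at 24 h and -0.54 ± 0.12 (adjusted p = 0.00339) over all times. Slc5a6 at 72 h was called under 13 of 14 alternatives but not with averaged sham arrays (adjusted p = 0.0984). Slc5a6 at 24 h kept its call under 5 of 14 alternatives and lost it with averaged sham arrays, with only the compared groups fitted, against all uninjured arrays, without the filter, after quantile normalization or without injury replicate 1 or 3 or sham replicate 1c or 1d (adjusted p = 0.0506 to 0.239). Slc5a6 over all times held under 26 of 27 alternatives and was lost with averaged sham arrays (adjusted p = 0.0502). Slc5a11, an inositol transporter gene, was dim throughout and passed the filter through uninjured arrays alone, so its falls are not independent of the filter. Its differences, counted among the calls, are therefore given as a description. It measured 102, 127 and 98.1 at 8 h against 267 and 268, with 97.8 and 201 in naive mice, a difference of -1.301 ± 0.36. Slc5a11 at 8 h was called under 5 of 14 alternatives but not with averaged sham arrays, with only the compared groups fitted, against all uninjured arrays, after quantile normalization, against the sham arrays of 8, 24 and 72 h pooled or without injury replicate 1 or 3 or sham replicate 1b or 1c (adjusted p = 0.0573 to 0.321). Slc5a11 over all times kept its call under 26 of 27 alternatives and lost it with averaged sham arrays (adjusted p = 0.0903). All of these fits except the one without the filter used it, so their number is no support for the falls. Slc16a1, the lactate and ketone body transporter MCT1 of endothelium and glia, measured 125, 143 and 186 at 72 h against 118 and 66.8 and had positive differences at all 4 times (from 0.34 to 0.76), none of which passed.

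Of 11 tested mouse members for nucleosides and nucleotide sugars, 1 rose over all times. Slc35b1 encodes a carrier that exchanges ATP and ADP across the membrane of the endoplasmic reticulum. It measured 3633, 4031 and 3552 at 72 h against 2384 and 2692 in sham and rose by 0.56 ± 0.15 (adjusted p = 0.0131), and over all times by 0.30 ± 0.07 (adjusted p = 0.00481). Slc35b1 at 72 h held under 11 of 14 alternatives and was lost with averaged sham arrays, with only the compared groups fitted or without sham replicate 1c (adjusted p = 0.0651 to 0.0797). Slc35e1 measured 508, 531 and 518 at 72 h against 416 and 147. One sham array lay far below the other, and the rise of 1.07 ± 0.31 (adjusted p = 0.0252) was not shared by the second probe set of the gene, at -0.04 ± 0.30. Slc35e1 at 72 h was called under 6 of 14 alternatives but not with only the compared groups fitted, against all uninjured arrays, with the mean of its probe sets, against the sham arrays of 8, 24 and 72 h pooled or without injury replicate 1, 2 or 3 or sham replicate 1d (adjusted p = 0.0534 to 0.58). Carriers of peptides, vitamins, lipids and organic ions had 18 tested members, of which 1 rose and 1 fell. Slc66a2, a gene of the lysosomal PQ-loop family, measured 1617, 1469 and 2059 at 24 h against 1106 and 1020.4 and rose by 0.68 ± 0.16 (adjusted p = 0.01), and over all times by 0.34 ± 0.08 (adjusted p = 0.00445). Slc66a2 at 24 h kept its call under 10 of 14 alternatives and lost it with averaged sham arrays, with only the compared groups fitted or without injury replicate 3 or sham replicate 1d (adjusted p = 0.0502 to 0.123). Slc23a2, the sodium-coupled vitamin C transporter SVCT2 of neurons, fell over all times by 0.24 ± 0.09 on the log2 scale (adjusted p = 0.0487). Slc23a2 over all times held under 9 of 27 alternatives and was lost with averaged sham arrays, without the filter, after quantile normalization or without injury 4 h replicate 1, 2 or 3, injury 8 h replicate 1 or 3, injury 24 h replicate 3, injury 72 h replicate 1, 2 or 3, sham 4 h replicate 1c, sham 8 h replicate 1b or 1c, sham 24 h replicate 1c or 1d or sham 72 h replicate 1c (adjusted p = 0.0507 to 0.166).

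Sham surgery alone left no member called against naive mice, when 0.11% of all genes were (0.0629% higher and 0.0472% lower in sham); 6 members had an unadjusted p below 0.05 (5.45% of them beside 10.2% of all genes), and the smallest adjusted p was 0.276, for the glycine transporter gene Slc6a9. For rats the same comparison had no member called beside 0.0244% of all genes, with 8 members at an unadjusted p below 0.05 (7.84% beside 5.33% of all genes).

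In the rat cortex few members passed. None was called at 30 min, when 0.0244% of all genes were, and unadjusted p was below 0.05 for 2 of 102 (1.96% beside 3.23% of all genes). At 4 h 4 were called (1 rose and 3 fell), 3.92% beside 4.99% of all genes (2.93% rising and 2.05% falling). That count was 0 without injury replicate 2 (0.465% of all genes) or sham replicate 3 (0.962%) or 4 (0.868%). It was 1 without injury replicate 3 (1.96%) and 2 without injury replicate 1 (0.88%). It was 33 without sham replicate 1 and 35 without sham replicate 2, when 26.4% and 27.8% of all genes were called. None was called at 8 h (0.709% of all genes, 0.0978% falling), where 5 members had an unadjusted p below 0.05 (4.90% beside 8.24% of all genes). None was called at 24 h (0.269%), where 2 did (1.96% beside 4.86%). At 72 h 2 were called, 1 in each direction, 1.96% beside 2.76% of all genes (2.1% rising and 0.66% falling). That count was 0 without injury replicate 2 or 3 or either sham array, when 0.416% to 0.908% of all genes were called. It was 6 without injury replicate 1, when 7.95% of all genes were called. At 21 d none was called (0% of all genes, with 1 member at an unadjusted p below 0.05, 0.98% beside 1.22%), and over all 6 times none was (2.3% of all genes, 2.18% rising), with 7 members at an unadjusted p below 0.05 (6.86% beside 10.8% of all genes). The number called by adjusted p over all 6 times rose from 0 to 1 when single arrays were left out. These were injury 30 min replicate 2, 3 or 5, sham 30 min replicate 2 or sham 4 h replicate 1, 2 or 4. In those fits 2.28% to 2.80% of all genes were called.

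Both rat calls at 72 h concern genes of known cell types, and the bases before their starts are shown for that reason. The RefSeq windows on GRCr8 are chr3:174115583-174115832 on the plus strand for Slc12a5 and chr5:165865929-165866178 on the plus strand for Slc2a5, with the same motifs in capitals as above.
Slc12a5: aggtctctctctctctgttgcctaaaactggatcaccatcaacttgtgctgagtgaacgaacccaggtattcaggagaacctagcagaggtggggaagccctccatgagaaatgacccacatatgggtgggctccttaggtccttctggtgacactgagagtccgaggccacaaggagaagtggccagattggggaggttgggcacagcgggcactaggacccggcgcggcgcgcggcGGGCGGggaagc
Slc2a5: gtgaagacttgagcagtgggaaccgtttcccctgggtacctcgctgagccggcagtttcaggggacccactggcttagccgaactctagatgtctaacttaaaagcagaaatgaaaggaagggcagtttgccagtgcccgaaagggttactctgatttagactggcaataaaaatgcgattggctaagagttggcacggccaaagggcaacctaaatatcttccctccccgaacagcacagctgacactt
The Slc12a5 window held 1 GC box and the Slc2a5 window held none of the 3 motifs searched. Slc12a5 encodes KCC2, the potassium-chloride cotransporter that keeps chloride low in mature neurons and so sets the direction of GABA currents. At 72 h it measured 4855, 1146 and 876 after injury against 6360.5 and 5609 in sham and 4267, 5035 and 4535 in naive rats. All injury arrays lay below sham, though the first lay closest to it. Injury replicates 2 and 3, which hold the low values, had median correlations of 0.864 and 0.883 with the other rat arrays, against 0.924 and 0.931 for the sham arrays, and replicate 2 had a median signal of 389.7 over all probe sets against 256 and 278. The fall was -1.82 ± 0.49 (adjusted p = 0.0375). Slc12a5 at 72 h was called under 7 of 13 alternatives but not with only the compared groups fitted, after quantile normalization or without injury replicate 2 or 3 or sham replicate 1 or 2 (adjusted p = 0.054 to 0.325). At 21 d it measured 4931, 5263 and 5205 against 4749.8 and 5839, and the groups overlapped (-0.04 ± 0.49, adjusted p = 1). At 8 and 24 h the differences were -0.77 and -0.45 and did not pass. The sum of 6 neuron markers was 6506 to 15658 on the injury arrays of 72 h against 26316 to 27275 in sham, and its part in the fall was not tested. Slc32a1, the vesicular GABA transporter, measured 2299, 1442 and 911 against 2529 and 3571 (-1.06 ± 0.39, adjusted p = 0.153). Slc1a1, EAAC1, measured 1505, 787 and 861 against 2071 and 1504 (-0.81 ± 0.32, adjusted p = 0.204). The Slc32a1 groups did not overlap, with the first injury array close to sham, and the first Slc1a1 injury array lay between the sham arrays. Neither passed with all arrays in the fit, and both did without the 4 arrays that stand apart, which are of other times and enter through the shared spread: Slc32a1 differed by -1.06 ± 0.25, adjusted p = 0.00628, and Slc1a1 by -0.81 ± 0.25, adjusted p = 0.0349. In that fit 7 members were called at 72 h, 3 rising and 4 falling, including both called with all arrays. That is 7.29% of the members tested in it beside 10.1% of all genes.

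Slc2a5 encodes GLUT5, a fructose transporter that marks microglia in brain. At 72 h it measured 943, 1103 and 687 after injury against 109 and 307 in sham and 219, 334 and 439 in naive rats, with no overlap. The rise was 2.29 ± 0.65 (adjusted p = 0.0476). In a fit over all probe sets the second probe set gave 3.10 ± 0.57 (adjusted p = 0.00185), and the first had an adjusted p of 0.0535. Slc2a5 at 72 h kept its call under 6 of 13 alternatives and lost it with only the compared groups fitted, without the filter, after quantile normalization or without injury replicate 2 or 3 or sham replicate 1 or 2 (adjusted p = 0.0609 to 0.648). At 24 h the order was the other way, with 525, 505 and 494 after injury against 867 and 1167 in sham, but the difference of -0.99 ± 0.65 did not pass (adjusted p = 1). The sum of 8 microglia and macrophage markers was 23389 to 39206 at 72 h after injury against 10030.3 to 11122 in sham, and 11225 to 15502 against 10152 to 11259 at 24 h; its part in these values was not tested.

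**Figure D4:**
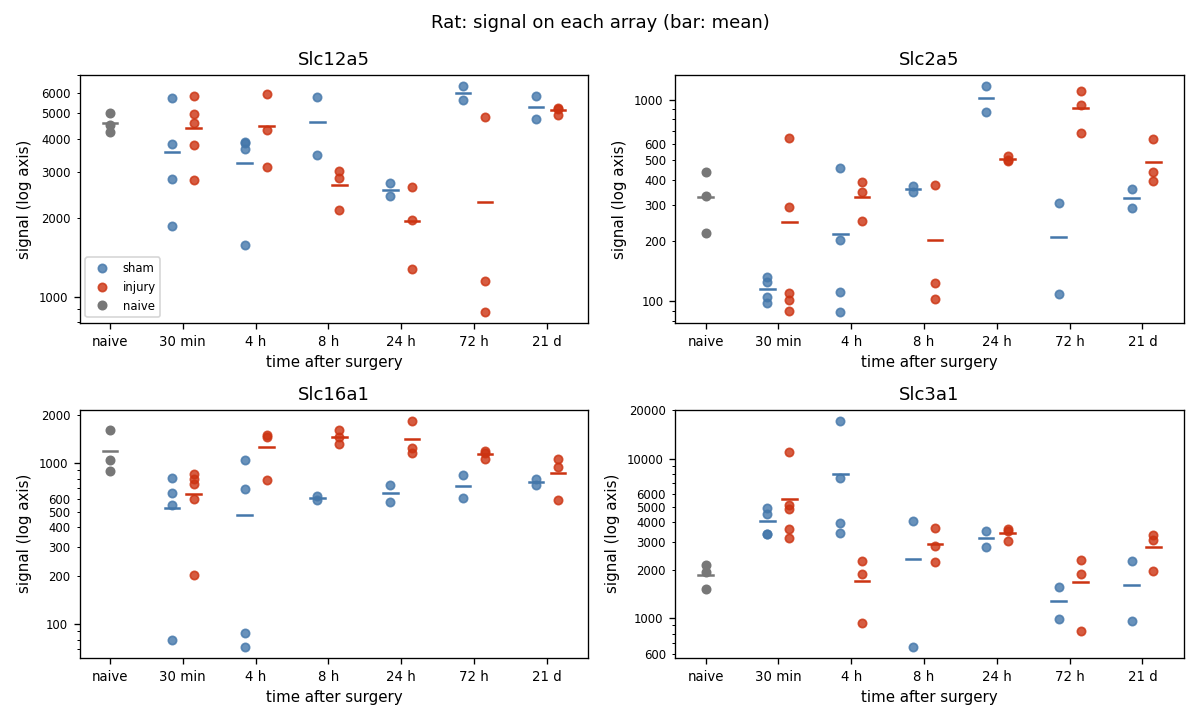
Signal on each rat array (y axes, logarithmic) for Slc12a5, Slc2a5, Slc16a1 and Slc3a1, by time after surgery (x axis; naive arrays first), with injury in red, sham in blue, naive in grey and bars at the group means. At 72 h all Slc12a5 injury points lie below sham and all Slc2a5 injury points above it, and at 4 h the sham points of Slc16a1 and Slc3a1 are split, with 2 arrays far from the others.

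The 4 rat calls at 4 h depend on 2 sham arrays. Slc3a1, the heavy chain rBAT of the cystine and dibasic amino acid transporter, measured 2269, 939 and 1895 after injury against 3960.2, 3392, 17210.3 and 7564 in sham. The high sham arrays are replicates 3 and 4, which stand apart from all other rat arrays. The same pair measured low for Slc16a1 (MCT1), which had 1501, 1461 and 789.8 after injury against 686, 1047, 87.6 and 72.5 in sham. The sodium-iodide symporter gene Slc5a5 measured 145, 40.7 and 97.3 against 93, 545, 846 and 1137, and the urea transporter gene Slc14a2 measured 1486, 932 and 1453 against 1434, 1845, 3336 and 6602. Slc16a1 rose by 2.21 ± 0.67 (adjusted p = 0.0496). Slc3a1 differed by -2.02 ± 0.50 (adjusted p = 0.0253), Slc5a5 by -2.50 ± 0.69 (adjusted p = 0.0389) and Slc14a2 by -1.13 ± 0.34 (adjusted p = 0.0467). Without the 4 arrays that stand apart no member was called at 4 h, beside 1.12% of all genes, and the adjusted p of these 4 genes was 0.33 to 0.699. Slc3a1 at 4 h held under 9 of 15 alternatives and was lost with only the compared groups fitted, against all uninjured arrays, without the 4 arrays that stand apart or without injury replicate 2 or sham replicate 3 or 4 (adjusted p = 0.0807 to 0.688). Slc16a1 at 4 h was called under 2 of 15 alternatives but not with only the compared groups fitted, against all uninjured arrays, with the higher floor, with the mean of its probe sets, without the filter, after quantile normalization, with the replicate block, without the 4 arrays that stand apart or without injury replicate 1, 2 or 3 or sham replicate 3 or 4 (adjusted p = 0.0503 to 0.602). Slc5a5 at 4 h kept its call under 4 of 15 alternatives and lost it with only the compared groups fitted, against all uninjured arrays, with the higher floor, without the filter, with the replicate block, without the 4 arrays that stand apart or without injury replicate 1, 2 or 3 or sham replicate 3 or 4 (adjusted p = 0.0509 to 0.579). Slc14a2 at 4 h held under 4 of 15 alternatives and was lost with only the compared groups fitted, against all uninjured arrays, without the filter, after quantile normalization, with the replicate block, without the 4 arrays that stand apart or without injury replicate 1, 2 or 3 or sham replicate 3 or 4 (adjusted p = 0.0515 to 0.699). The second probe set of Slc16a1 had a difference of 0.51 ± 0.43 at 4 h, which did not pass.

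At later times, without those arrays in the contrast, the Slc16a1 groups were apart. Injured rats measured 1458, 1315 and 1598 at 8 h against 628 and 588 in sham. They measured 1829, 1156 and 1237 at 24 h against 574 and 735, and 1063, 1162 and 1193 at 72 h against 607 and 843. The injury arrays lay above sham at all 3 times and the sham arrays lay below the naive arrays (899, 1043 and 1609). All injury arrays of 8 and 72 h, and those of 1156 and 1237 at 24 h, lay within the range of the naive arrays. By 21 d the groups overlapped (1063, 594 and 949 against 733 and 794). With all arrays in the fit, the differences were 1.26, 1.08 and 0.67 and did not pass, nor did the average over the 6 times (0.99 ± 0.31, adjusted p = 0.0871). Without the 4 arrays that stand apart, when 1.86% of all genes were called at 8 h and 5.61% in the average, the 8 h difference was called (1.26 ± 0.29, adjusted p = 0.0161), and so was the average (0.64 ± 0.12, adjusted p = 0.000658). The average was also called with the mean of its probe sets (0.76 ± 0.19, adjusted p = 0.0198).

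Set side by side, 51 members were tested in both species. The 2 injuries, disk sizes and pooling differ, and no gene was called in both species at any matched time or in the averages. Of the 13 called over all times in mouse, 9 had the same sign in rat, and 30 of all 51 did (58.8%, beside 61% of the 2189 genes tested in both). Slc3a2 had 0.32 ± 0.07 in mouse and 0.21 ± 0.15 in rat, and Slc7a5 had 0.39 ± 0.06 and 0.27 ± 0.16. At single rat times neither was called, with differences at 8 h of 0.35 for Slc3a2 and 0.32 for Slc7a5. Slc6a15 had -0.39 ± 0.07 in mouse and -0.27 ± 0.15 in rat, with -1.19 at 72 h in rat, which was called only without the 4 arrays that stand apart (-1.19 ± 0.38, adjusted p = 0.041). Slc6a13 had -0.63 ± 0.09 and -0.13 ± 0.20, and Slc25a14 had -0.50 ± 0.11 and -0.17 ± 0.14. Slc6a8 differed by 0.62 ± 0.12 in mouse and by -0.03 ± 0.14 in rat. Slc16a1 had the highest rat value of these genes, 0.99 ± 0.31, and 0.58 ± 0.27 in mouse, with no call in either. Whether an effect differs between the species was not tested.

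**Figure D5:**
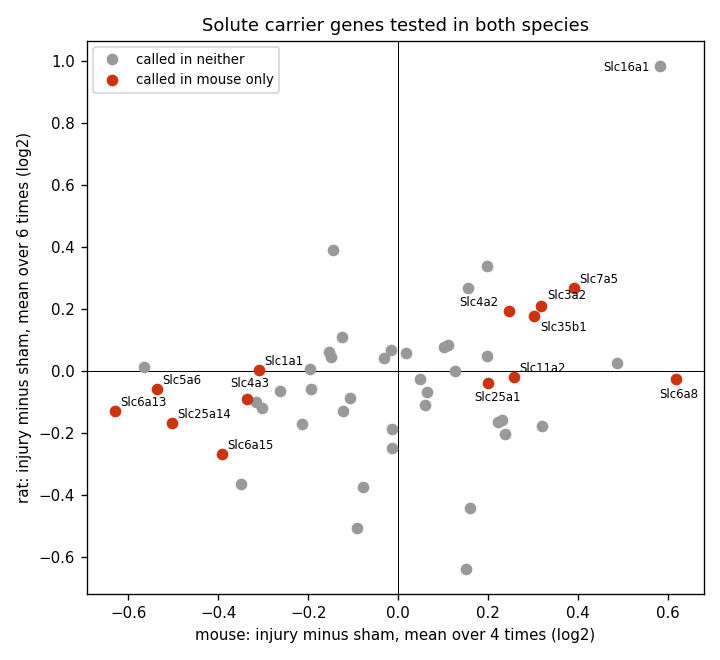
Log2 difference of injury minus sham averaged over the times of each species, mouse on the x axis (4 times) and rat on the y axis (6 times), for the 51 solute carrier genes tested in both; red points were called in mouse only. Of the 13 red points 9 have the same sign in both species, and Slc16a1, called in neither, is the highest point.

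Other membrane transport genes were read from the same fit for comparison: pumps, ABC transporters, aquaporins, the organic anion transporters of the Slco family and the chaperone gene Bsg, with 35 tested in each species. In mouse none was called at 4 h, beside 0.865% of all genes. At 8 h 2 fell and none rose, beside 3.27% of all genes falling and 4.91% rising. At 24 h 2 fell and none rose, beside 4.5% falling and 6.2% rising. At 72 h 3 rose and 1 fell, beside 9.85% rising and 5.68% falling. Over all times 2 rose, the cholesterol exporter gene Abca1 and the sodium pump subunit gene Atp1b3. In the same average 3 fell, the drug efflux pump gene Abcb1a, the sulfonylurea receptor gene Abcc8 and the calcium pump gene Atp2a3. Of all genes 13% rose and 10.3% fell in that average. In rat 3 fell at 4 h, on the sham arrays described above, beside 2.05% of all genes falling. At 72 h 2 fell, the calcium pump genes Atp2a2 and Atp2b1, beside 0.66% of all genes falling. The calls of these other transport genes were not repeated under the alternatives.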

How the data were processed

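The deposited values are array intensities per probe set, not log transformed, that the authors had scaled so that each array's mean after trimming 2% at each end was nearly equal, per the deposited tables themselves. The software and settings that made them are not given in the sources used here. Probe sets were named from a platform annotation that can be old: 10833 of the mouse and 7006 of the rat probe sets had 1 symbol, 396 and 308 had several, and 1193 and 1426 had none. Control probe sets were left out.

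Signals below the 10th percentile of a species were set to it (24.1 in mouse and 32.1 in rat), a gene was taken from its probe set with the highest mean, and genes above the 40th percentile (193 and 202) on at least 3 arrays were tested (6355 mouse and 4091 rat genes). The log2 values entered limma (version 3.58.1, under R 4.3.3) with 1 mean per group and an intensity-dependent prior variance, separately in each species (13 and 26 residual degrees of freedom). P-values were adjusted by the Benjamini-Hochberg method over all genes of a contrast. Injury was compared with sham of the same time, and the averages weight the times equally. Plots were made in Python 3.11.15 using matplotlib 3.10.9. The fit was tested on simulated data.

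Genes named were, for each comparison, up to 6 called rises and 6 called falls of largest size. For sham against naive and for 72 h against 4 h the rule took up to 4 each way. To these came the 2 of smallest adjusted p in each role class and species, members called in both species, and a list of textbook members; some of those are printed. Slc50a1 and the genes whose promoters are printed were chosen after their values were seen. The members, lists and tests were chosen with earlier results of these data known. Rat replicate numbers were not taken as pairs of animals in the main fit. Of 15 same-numbered pairs of injury and sham arrays, 4 had deviations correlated above 0.1, and the range was -0.41 to 0.36. At 30 min the correlations were 0.36, 0.25, -0.41 and 0.36. With 2 arrays in most sham groups, such correlations cannot show whether the numbers mark pairs.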

Additional observations from a re-analysis of the deposited data

Results flagged for a closer look

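In the named genes, 69 groups of 4 or more arrays were checked for 1 array far from the rest, and 5 had one; chance gives about 1 in 20. The potassium-chloride cotransporter gene Slc12a5 measured 1574.15 on rat sham 4 h replicate 4, while the other arrays of that group measured 3675 to 3884. The lactate transporter gene Slc16a1 measured 201.854 on rat injury 30 min replicate 5 against 595 to 860.0 on the others of its group. It measured 79.6686 on rat sham 30 min replicate 3 against 552 to 812 on the others. These 3 arrays are among the 4 that stand apart over all genes. On rat injury 30 min replicate 4, which is not one of them, the zinc transporter gene Slc30a4 measured 141.763 against 597 to 904, and the cationic amino acid transporter gene Slc7a1 measured 45.5337 against 296 to 426.

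Injury effects of 2 members differed between 72 h and 4 h in mouse by limma's test of that difference. The iron importer gene Slc11a2 had a 72 h effect minus 4 h effect of -0.949314 on the log2 scale (adjusted p = 0.013), and the mitochondrial carrier gene Slc25a14 of -1.06208 (adjusted p = 0.0485). Neither call held when both sham arrays of each time were averaged.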

How the results depend on the processing

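No called member changed sign under any alternative run, and 14 of 72 calls held under every one: 12 averages over the mouse times, Slc11a1 at 72 h and Slc6a13 at 24 h. Counts of members called moved as follows. With all uninjured arrays as control they were 9 for mouse 4 h, 14 for 8 h, 23 for 24 h, 29 for 72 h and 21 for 72 h minus 4 h. The shares of all genes were then 6.97%, 12.3%, 19.0087%, 23.7% and 19.1%. In rat the counts were 0 for 4 h, 2 for 8 h and 9 for 24 h, beside 1.17%, 1.93% and 11.3% of all genes. That rat 24 h count also compares the set of 24 h arrays described above with arrays of other times. With averaged sham arrays the counts were 2, 2 and 4 for mouse 8, 24 and 72 h, 0 for 72 h minus 4 h and 12 for the average. The shares of all genes were then 3.01%, 4.01%, 7.38%, 1.26% and 13.6%. With only the compared groups fitted they were 4, 1 and 3 for mouse 8, 24 and 72 h (4.86%, 4.66% and 7.47% of all genes). For rat 4, 8 and 72 h they were 0, 1 and 0 (0.0244%, 1.17% and 0.464%). Against the sham arrays of 8, 24 and 72 h pooled, which was chosen after seeing the data, they were 14, 20 and 29. The shares of all genes were then 12.9%, 17.2% and 24.1%. Without the filter they were 1 for mouse 4 h and 4 for 72 h minus 4 h (0.703% and 3.66% of all genes). For rat 4, 24 and 72 h they were 1 each (2.09%, 0.274% and 2.11%). With the floor at the 25th percentile they were 4 for 72 h minus 4 h and 2 for rat 4 h (5.62% and 4.74% of all genes). After quantile normalization they were 1 for 72 h minus 4 h, 2 for rat 4 h and 0 for rat 72 h. The shares of all genes were then 5.38%, 4.77% and 1.59%. Averaging the probe sets of each gene gave 2 for the rat average, beside 2.74% of all genes. Without the 4 rat arrays that stand apart the counts were 0 for 4 h, 1 for 8 h, 7 for 72 h and 3 for the average. The shares of all genes were then 1.12%, 1.86%, 10.1% and 5.61%. The causes of these shifts were not tested.

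Leaving out 1 array at a time gave 3 to 7 for mouse 8 h, 2 to 15 for 24 h, 4 to 22 for 72 h and 0 to 11 for 72 h minus 4 h. The shares of all genes then ran from 3.11% to 7.14%, 3.88% to 12.1%, 7.74% to 20.4% and 2.79% to 12.2%. It gave 0 to 35 for rat 4 h, 0 to 6 for rat 72 h and 0 to 1 for the rat average. Those shares ran from 0.465% to 27.8%, 0.416% to 7.95% and 1.87% to 2.98%. For the averages this was added after seeing the data. With the replicate block in rat, where the arrays share only a number, the counts were 2 for 4 h and 1 for the average. These stand beside 3.59% and 2.52% of all genes, and no other count moved. No paired analysis was possible because both mouse sham arrays of a time carry the number 1. With the title letter as a block, 72 h minus 4 h had 1, beside 4.88% of all genes. No other mouse count then moved by over 1.5 times. The number of arrays, with 2 in most sham groups, limits every call.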
